A study of Mus musculus with 8 samples.

Results

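Under IUB288, an agonist of the glucagon receptor, livers of mice labelled KO for Fxr were compared with livers of WT mice. Members of this comparison were all loci that the authors tested between KO_IUB288 and WT_IUB288, 13918 of the 26682 listed, and 10313 of them carried a symbol and reached 1 FPKM in either group, the minimum for ranking. FPKM is the number of fragments scaled for transcript length and library size. The study held 8 mice in 4 groups of 2: WT with vehicle, WT with IUB288, KO with vehicle and KO with IUB288, all on a C57Bl/6J background and fasted for 2 h. The labels say KO, while the design text names mice with a floxed Fxr gene. The recombinase, the tissue it acts in and the exon removed are not given in the sources used here. High-fat and chow diets are both mentioned but tied to no mouse, and a diet that differed with genotype cannot be told apart from it. Each group has 1 pooled value per locus in the authors' deposited table, and none per mouse. Values after ± are standard errors on the log2 scale, taken as the fold change over the authors' test statistic, for 2 mice per group. A pooled value does not show whether both mice of a group were high or low. Between the 5th and 95th percentiles of loci above 10 FPKM the error was 0.397 to 0.689.

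Fxr, listed as Nr1h4, is the gene of the farnesoid X receptor, which bile acids activate. In hepatocytes it represses bile acid synthesis through the repressor SHP and raises bile acid export, and it also affects lipid, glucose and acute-phase genes. The glucagon receptor, encoded by Gcgr, acts through cyclic AMP and raises gluconeogenesis and amino acid catabolism in the liver. The question here is which liver transcripts differ between the genotypes when this receptor is being stimulated.

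Saa, Lcn2 and other acute-phase genes, both main metallothionein genes and markers of liver macrophages were among the loci lower in KO livers under IUB288. P450 genes such as Cyp3a11, male-biased genes such as Hsd3b5 and the globins were among the loci higher. Of all loci, 75 passed a q-value of 0.05 in the authors' deposited table, which is 0.539% of those tested. Of these, 45 were higher in KO (0.323%) and 30 lower (0.216%). At an unadjusted p under 0.05 there were 573 loci, 283 higher and 290 lower. With p-values computed instead from a normal distribution of the authors' statistic and adjusted again, 28 loci passed, of which 20 are among the 75. The other 8 were, apart from Moxd1, loci with very large statistics and very small implied errors, so their calls are uncertain. The smallest change that passed was 1.09 on the log2 scale. Of 365 loci that reached 1 FPKM and lay at least 2-fold apart, 60 passed. The median log2 fold change of all tested loci above 0 in both groups was -0.01, and that of the 796 loci above 100 FPKM was -0.19. Among loci of at least 1 FPKM, the 5th and 95th percentiles were -0.57 and 0.51.

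**Figure D1:**
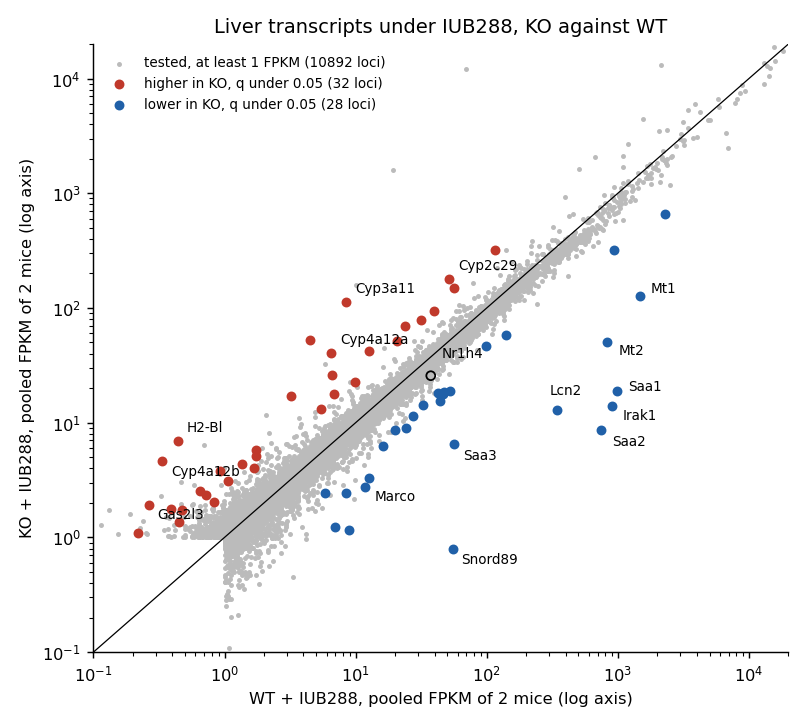
Pooled FPKM of 2 mice per group, WT with IUB288 on the horizontal axis and KO with IUB288 on the vertical axis, both logarithmic, for 10892 tested loci of at least 1 FPKM (27 of them lie outside the axes). Red points (32) were higher and blue points (28) lower in KO at q under 0.05, the black line marks equal levels, and the open circle is Nr1h4. Saa2, Snord89, Irak1, Saa1 and Lcn2 lie farthest below the line among the called loci.

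**Figure D2:**
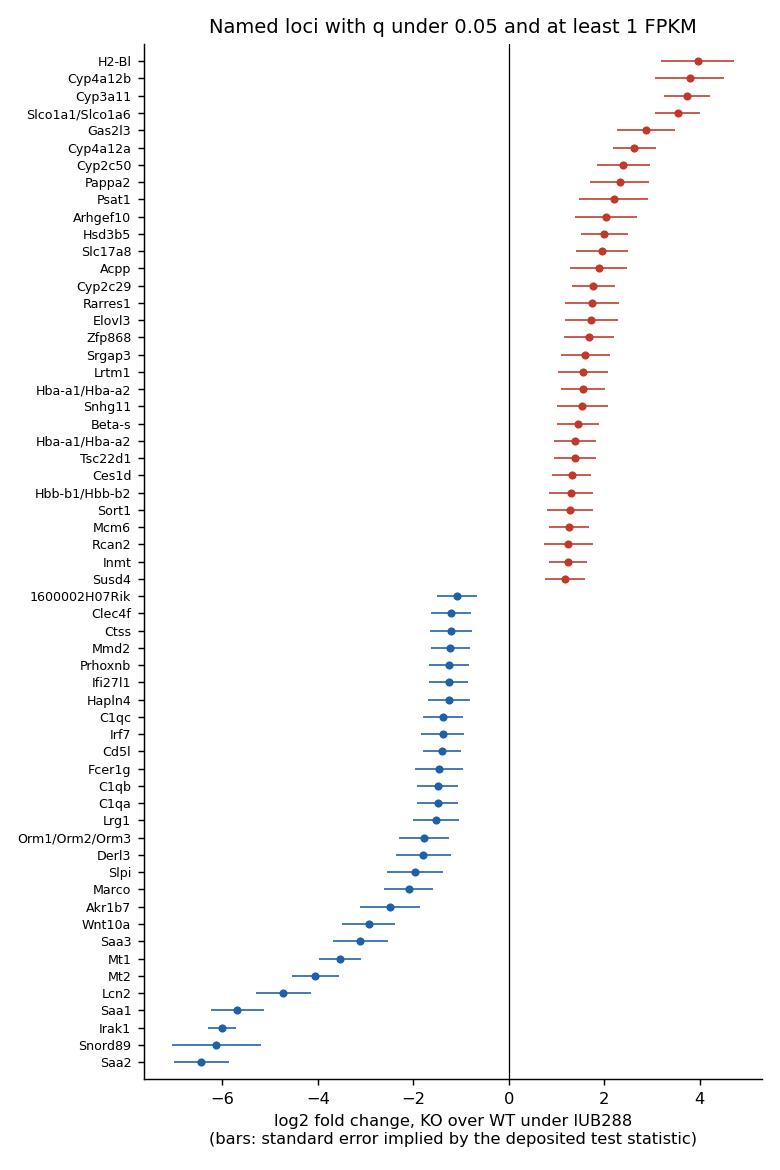
Log2 fold change of KO over WT under IUB288 for the 59 named loci with q under 0.05, at least 1 FPKM in either group and FPKM above 0 in both. Bars are the standard errors implied by the authors' test statistics. Decreases reach -6.44 (Saa2) and increases 3.96 (H2-Bl).

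The targeted gene was read first. Nr1h4 lies on the minus strand of mm10 chromosome 10, from 89453976 to 89533648. The authors' deposited table listed 37.4 FPKM in WT and 25.7 in KO, which is -0.54 ± 0.41 on the log2 scale (q = 1.00). Under vehicle the authors' deposited tables listed 49.3 in WT and 36.8 in KO, from tables scaled separately and without a test. The loss of a single exon cannot be read from one value for the locus. Its 2 named neighbours were both higher in KO. Gas2l3, which encodes a protein that binds the cytoskeleton, lies 10 kb from Nr1h4 (chromosome 10, 89408823 to 89443967). In the authors' deposited table it was at 0.263 FPKM in WT and 1.93 in KO, a difference of 2.88 ± 0.61 on the log2 scale (q = 0.0118). Slc17a8, the gene of a vesicular glutamate transporter, lies 40.4 kb away on the other side (chromosome 10, 89574020 to 89632258). It was at 0.649 FPKM in WT and 2.52 in KO, 1.96 ± 0.54 on the log2 scale (q = 0.0118, the authors' deposited table), but did not pass with normal p-values. The same order held under vehicle, where the authors' deposited tables listed Gas2l3 at 0.438 in WT and 2.19 in KO, and Slc17a8 at 3.51 and 9.77. All 3 genes are annotated on the minus strand. The next tested named loci on the side of Slc17a8 did not pass: Scyl2 had 0.25 ± 0.42, Actr6 -0.14 ± 0.51 and Uhrf1bp1l -0.13 ± 0.48 on the log2 scale (each q = 1.00, the authors' deposited table). Within 5 Mb of Nr1h4, 3 of 61 tested loci passed (4.92%), beside 0.539% over all tested loci. On the whole chromosome, these 3 included, 8 of 725 passed (1.10%). Within 10 Mb there were still 3, of 207 (1.45%). The third is a locus without a symbol, listed at 0 in WT.

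**Figure D3:**
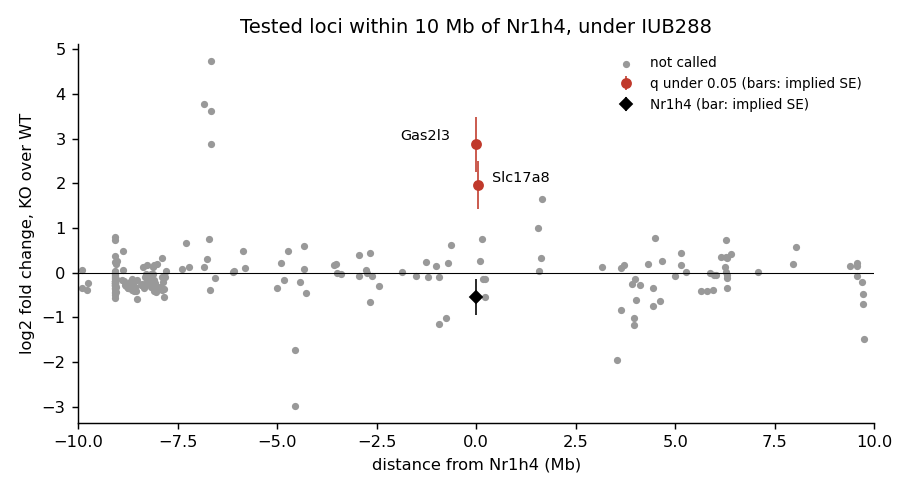
Log2 fold change of KO over WT under IUB288 (vertical axis) against the distance from Nr1h4 in Mb (horizontal axis) for tested loci with FPKM above 0 in both groups. Red points passed q under 0.05, grey points did not, the black diamond is Nr1h4, and bars are implied standard errors. Gas2l3 (2.88) and Slc17a8 (1.96), on either side of Nr1h4, are the 2 red points.

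Of 27 tested genes that the farnesoid X receptor is known to induce, 1 was higher and 0 were lower in KO, and their median log2 fold change was -0.12, beside -0.01 over all tested loci. At an unadjusted p under 0.05, 4 were higher and 1 was lower. By sign, 9 were positive and 18 negative. The one that passed was Ces1d, a carboxylesterase that hydrolyses triglycerides, at 31.6 FPKM in WT and 78.7 in KO, 1.32 ± 0.41 on the log2 scale (q = 0.0118, the authors' deposited table). Ces1d did not pass with normal p-values. Nr0b2, which encodes SHP, was at 39.2 FPKM in WT and 33.1 in KO, -0.25 ± 0.40 (q = 1.00, the authors' deposited table). The bile salt export pump gene Abcb11 was at 71.6 and 54.1 FPKM, -0.40 ± 0.44 (q = 1.00, the authors' deposited table). Slc51b, a subunit of a basolateral bile acid exporter, had the lowest value of the list, at 2.16 and 0.741 FPKM, -1.54 ± 1.18 (q = 1.00, the authors' deposited table). Of 18 tested bile acid synthesis genes 0 passed in either direction, beside 0.539% over all tested loci, and their median was 0.05. Past an unadjusted p of 0.05 lay 2 higher genes, Cyp7a1 and Cyp8b1, and 1 lower. The rate-limiting enzyme gene Cyp7a1 was at 2.49 FPKM in WT and 4.13 in KO, 0.73 ± 0.44 (q = 0.787, the authors' deposited table). Cyp8b1, the hydroxylase gene of cholic acid synthesis, was at 152.5 and 250.9 FPKM, 0.72 ± 0.43 (q = 0.796, the authors' deposited table). Under vehicle the authors' deposited tables listed Cyp7a1 at 8.96 in WT and 12.8 in KO, and Cyp8b1 at 191.8 and 243.7, so both were listed higher in KO in either treatment.

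Among 31 tested acute-phase genes, the proteins of which the liver secretes in inflammation, 6 were lower and 0 higher in KO. Their median log2 fold change was -0.51, and 29 of the 31 had a negative sign. Saa2, which encodes a serum amyloid A carried on high-density lipoprotein, was at 748.2 FPKM in WT and 8.60 in KO, -6.44 ± 0.58 on the log2 scale (q = 0.0118, the authors' deposited table). Its neighbour Saa1 was at 981.6 FPKM in WT and 19.1 in KO, -5.69 ± 0.55 (q = 0.0118, the authors' deposited table). Saa3 of the same cluster was at 56.3 and 6.54 FPKM, -3.11 ± 0.57 (q = 0.0118, the authors' deposited table). Lcn2, the gene of the siderophore-binding protein lipocalin 2, was at 341.3 and 12.9 FPKM, -4.72 ± 0.57 (q = 0.0118, the authors' deposited table). All 4 were thus high in the WT group and low in the KO group. The locus of the orosomucoid genes Orm1, Orm2 and Orm3 was at 2270 and 662.7 FPKM, -1.78 ± 0.53 (q = 0.0118, the authors' deposited table). Lrg1, the gene of a secreted leucine-rich glycoprotein, was at 926.7 and 322.0 FPKM, -1.52 ± 0.48 (q = 0.0208, the authors' deposited table). With normal p-values 4 of the 6 passed, and the Orm locus and Lrg1 did not. Saa1 and Saa2 are near-identical, as are the Orm genes, so reads may have been divided between copies.

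The rest of the acute-phase list was graded. Haptoglobin (Hp) was at 6886 FPKM in WT and 2484 in KO, -1.47 ± 0.70 (q = 0.332, the authors' deposited table). Hamp, which encodes the iron hormone hepcidin, had -0.90 ± 0.44 (q = 0.307), and the lipopolysaccharide-binding protein gene Lbp -0.96 ± 0.40 (q = 0.109), both in the authors' deposited table. The fibrinogen genes Fga, Fgb and Fgg had -0.14, -0.43 and -0.33, Crp -0.20 and the constitutive amyloid gene Saa4 0.00 on the log2 scale, each with q = 1.00 in the authors' deposited table. Socs3, a target of interleukin-6 signalling, was at 3.15 and 3.04 FPKM, -0.05 ± 0.48 (q = 1.00, the authors' deposited table).

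Under vehicle KO was also listed below WT for Saa2, Saa1, Saa3 and Lcn2, with a smaller gap. The Orm locus was listed above it, at 689.5 FPKM in WT and 816.4 in KO, and the acute-phase list summed to 15728 and 15958 (the authors' deposited tables). The authors' deposited treatment tables listed Saa2 at 90.8 FPKM in WT with vehicle, 36.4 in KO with vehicle, 809.8 in WT with IUB288 and 9.05 in KO with IUB288. Saa1 was at 234.7, 82.1, 1062 and 20.1 FPKM in the same order, and Lcn2 at 24.5, 13.5, 369.2 and 13.6 (the authors' deposited tables). The WT group with IUB288 was therefore the highest of the 4 for Saa2, Saa1 and Lcn2. KO with IUB288 was the lowest for both Saa genes and equal to KO with vehicle for Lcn2.

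The promoters of these genes are shown because all 4 genes were lower in KO and the Saa genes lie side by side. Sequences are from RefSeq (GRCm38.p6), 250 bases before to 50 after each start, and the choice of all but Saa2 was made after their values were seen. Capitals mark a C/EBP form, searched as TTGCNNAA on both strands, the core that C/EBP factors of the acute-phase response are known to bind.
Saa2 promoter (chr7:46751583-46751882, plus strand): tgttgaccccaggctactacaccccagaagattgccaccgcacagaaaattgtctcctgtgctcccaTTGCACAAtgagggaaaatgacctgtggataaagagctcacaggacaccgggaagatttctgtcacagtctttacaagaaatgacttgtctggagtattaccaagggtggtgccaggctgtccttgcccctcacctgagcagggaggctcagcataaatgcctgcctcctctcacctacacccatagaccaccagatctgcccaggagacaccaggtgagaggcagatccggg
Saa1 promoter (chr7:46742931-46743230, minus strand): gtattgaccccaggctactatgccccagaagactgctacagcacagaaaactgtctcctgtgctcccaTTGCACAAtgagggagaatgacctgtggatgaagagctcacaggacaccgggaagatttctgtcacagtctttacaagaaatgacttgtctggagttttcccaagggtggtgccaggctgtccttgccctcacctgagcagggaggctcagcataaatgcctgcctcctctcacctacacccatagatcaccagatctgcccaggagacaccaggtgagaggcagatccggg
Saa3 promoter (chr7:46715627-46715926, minus strand): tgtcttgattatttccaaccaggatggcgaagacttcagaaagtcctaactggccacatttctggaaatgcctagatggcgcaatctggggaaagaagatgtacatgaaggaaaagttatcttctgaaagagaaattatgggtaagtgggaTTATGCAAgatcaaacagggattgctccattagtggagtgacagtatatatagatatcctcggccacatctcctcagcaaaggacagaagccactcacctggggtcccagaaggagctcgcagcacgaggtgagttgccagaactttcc
Lcn2 promoter (chr2:32387690-32387989, minus strand): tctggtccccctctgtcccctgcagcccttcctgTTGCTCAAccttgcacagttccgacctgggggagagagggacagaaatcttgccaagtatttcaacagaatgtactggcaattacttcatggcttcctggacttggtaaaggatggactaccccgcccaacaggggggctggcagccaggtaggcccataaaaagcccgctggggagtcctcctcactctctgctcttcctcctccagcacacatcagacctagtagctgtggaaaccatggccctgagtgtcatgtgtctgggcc
Each window held 1 match to this form, which 10.8% of 32851 promoter windows of the same length hold. The windows of Saa1 and Saa2 were 95.3% identical, and those of Saa1 and Saa3 54.2%. A kB form searched as GGGANTTTC (1.11% of windows) and a STAT form searched as TTCNNNGAA (8.30%) had 0 matches in the 4 windows. The half-site AGGTCA of nuclear receptors (16.3% of windows) had 1 match each in Saa1 and Saa2, on the other strand. A match is a run of letters and not a shown binding site.

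The metallothionein genes Mt1 and Mt2, which encode small proteins that bind zinc and copper, were both lower in KO. Mt2 was at 831.7 FPKM in WT and 50.2 in KO, -4.05 ± 0.50 (q = 0.0118, the authors' deposited table). Mt1 was at 1464 and 126.5 FPKM, -3.53 ± 0.44 (q = 0.0118, the authors' deposited table). The low level in KO was also listed under vehicle, at 59.4 FPKM in WT and 3.34 in KO for Mt2 and at 182.7 and 17.8 for Mt1 (the authors' deposited tables). IUB288 went with higher levels in both genotypes: the authors' deposited tables gave Mt2 a log2 fold change of 3.91 ± 0.48 in WT and 3.98 ± 0.68 in KO, and Mt1 3.11 ± 0.44 and 2.91 ± 0.43. The difference of these effects, KO minus WT, was 0.07 ± 0.84 for Mt2 and -0.20 ± 0.62 for Mt1 (q = 1.00 for each by a normal test with Benjamini-Hochberg adjustment over all loci). Of 10 tested genes of the metallothionein and zinc list, these 2 were the ones that passed. Slc39a4, a zinc importer, had -0.94 ± 0.44 (q = 0.268) and Mtf1, the zinc-sensing factor that drives the metallothionein genes, 0.16 ± 0.68 (q = 1.00), both in the authors' deposited table.

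Their promoters are shown for the metal response elements that Mtf1 is known to bind. Capitals mark the core of that element, searched as TGCGCNC or TGCACNC on both strands.
Mt1 promoter (chr8:94178839-94179138, plus strand): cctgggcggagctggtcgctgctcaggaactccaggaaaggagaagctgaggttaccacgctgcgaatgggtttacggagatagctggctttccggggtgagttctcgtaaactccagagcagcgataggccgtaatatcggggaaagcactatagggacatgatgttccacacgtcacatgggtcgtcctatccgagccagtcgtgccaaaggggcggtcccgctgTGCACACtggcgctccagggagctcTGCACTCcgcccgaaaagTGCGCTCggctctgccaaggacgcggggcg
Mt2 promoter (chr8:94172368-94172667, plus strand): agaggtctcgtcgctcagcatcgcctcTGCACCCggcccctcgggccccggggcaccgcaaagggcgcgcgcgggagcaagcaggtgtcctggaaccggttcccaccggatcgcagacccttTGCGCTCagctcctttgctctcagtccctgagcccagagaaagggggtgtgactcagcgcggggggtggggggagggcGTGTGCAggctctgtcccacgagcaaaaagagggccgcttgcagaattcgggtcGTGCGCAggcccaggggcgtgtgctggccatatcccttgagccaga
The core occurred 3 times in the Mt1 window and 4 times in the Mt2 window, and 25.7% of all windows hold at least 1. The 2 windows were 49.4% identical. Metallothionein genes are also glucocorticoid targets. The list of such targets had a median log2 fold change of -0.002, with 8 of 17 tested genes positive and 9 negative. Of these 17, 3 were lower and 0 higher, beside 0.216% lower over all tested loci. The 3 were Mt1, Mt2 and Lcn2, all of them already counted in the lists above. The others included Fkbp5 at -1.02 ± 0.43 (q = 0.0984), Tsc22d3 at 0.07 ± 0.40 (q = 1.00) and Per1 at 0.00 ± 0.47 (q = 1.00) on the log2 scale, all in the authors' deposited table.

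Of 15 tested markers of macrophages, in the liver chiefly Kupffer cells, 6 passed as lower in KO and 0 as higher, 13 had an unadjusted p under 0.05, all 15 had a negative sign, and the median was -1.19. In tissue RNA, fewer cells of a type and less RNA per cell cannot be told apart. Marco, a scavenger receptor, was at 11.8 FPKM in WT and 2.76 in KO, -2.10 ± 0.52 (q = 0.0118, the authors' deposited table). The 3 chains of complement C1q, C1qa, C1qb and C1qc, had -1.49 ± 0.42, -1.49 ± 0.43 and -1.37 ± 0.42 (each q = 0.0118, the authors' deposited table). Cd5l, a secreted macrophage protein, was at 46.6 and 17.6 FPKM, -1.40 ± 0.40 (q = 0.0118, the authors' deposited table). Clec4f, a lectin of mouse Kupffer cells, was at 32.8 and 14.2 FPKM, -1.21 ± 0.42 (q = 0.0118, the authors' deposited table). With normal p-values 1 of the 6, Marco, passed. Cd68, Vsig4, Timd4 and Csf1r, which did not pass by the deposited q either, had -1.19, -1.19, -1.03 and -0.97 on the log2 scale (the authors' deposited table). Mpeg1 and Ly6c2 had -0.15 and -0.21 (q = 1.00 for each, the authors' deposited table).

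Summed over the macrophage list, the authors' deposited table gave 406.4 FPKM in WT and 205.6 in KO, and the treatment tables listed 306.9 and 244.3 under vehicle. None of the 18 listed markers was at 0 in either group, and the defining markers Clec4f, Cd5l and Timd4 were present in both. Called loci outside the list included Fcer1g, a signalling subunit of Fc receptors, at 24.4 and 8.91 FPKM, -1.45 ± 0.50 (q = 0.0208, the authors' deposited table). Ctss, the lysosomal protease cathepsin S, was at 20.1 and 8.66 FPKM, -1.21 ± 0.44 (q = 0.0282, the authors' deposited table). Irf7, a transcription factor of the interferon response, was at 16.2 and 6.21 FPKM, -1.38 ± 0.45 (q = 0.0118, the authors' deposited table). Fcer1g, Ctss and Irf7 did not pass with normal p-values. Irf7 was the only 1 of 41 tested interferon and antigen-presentation genes to pass; 34 of the 41 had a negative sign and the median was -0.28. Ifi27l2a (-1.42 ± 0.66, q = 0.298) and Oasl1 (-1.26 ± 0.50, q = 0.109) did not pass (both in the authors' deposited table). The part of the macrophage markers in the lower acute-phase levels was not tested.

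Of 9 neutrophil markers 3 were tested, and S100a9 had -1.41 ± 0.80 (q = 0.86) in the authors' deposited table; the list summed to 10.1 FPKM in WT and 3.79 in KO. Mpo and Camp were listed at 0 in KO. Of 16 endothelial markers 0 passed (median -0.30), nor did any of 21 stellate cell and fibroblast markers (0.23), 8 lymphocyte markers (-0.04) or 12 hepatocyte markers (-0.21). The 8 lymphocyte markers were all under 1 FPKM in both groups, so their median says little. By sign, 3 of the 12 hepatocyte markers were positive and 9 negative. Albumin (Alb) was at 8850 FPKM in WT and 8854 in KO (the authors' deposited table). Hpx, the lowest of the list, was at 6692 FPKM in WT and 3333 in KO, -1.01 ± 0.68 on the log2 scale (the authors' deposited table). Of 15 pancreas markers 13 were listed at 0 in WT and 12 in KO.

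Of 38 tested genes of xenobiotic metabolism, 3 passed as higher and 0 as lower, 10 were higher and 1 lower at an unadjusted p under 0.05, and the median of the list was 0.08. Cyp3a11, a P450 that breaks down drugs and bile acids, was at 8.40 FPKM in WT and 112.1 in KO, 3.74 ± 0.48 (q = 0.0118, the authors' deposited table). Cyp2c50 was at 3.22 and 17.0 FPKM, 2.40 ± 0.55 (q = 0.0118, the authors' deposited table). Cyp2c29 was at 51.9 and 177.2 FPKM, 1.77 ± 0.45 (q = 0.0118, the authors' deposited table). The near paralogs Cyp2c54 (2.29 ± 0.69, q = 0.0587) and Cyp2c37 (1.66 ± 0.60, q = 0.0626) lay just outside the threshold, and reads may be divided between copies of this family (the authors' deposited table). Among the receptors that induce such genes, Nr1i2, the pregnane X receptor, had -0.50 ± 0.42 and Nr1i3, the constitutive androstane receptor, -0.46 ± 0.82 (q = 1.00 for each, the authors' deposited table).

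These P450 genes were far below their vehicle levels in both genotypes. The authors' deposited tables listed Cyp3a11 at 404.0 FPKM in WT and 748.5 in KO under vehicle, and at 9.0 and 117.9 under IUB288. Cyp2c50 was listed at 314.5 and 510.9 FPKM under vehicle and at 3.45 and 17.9 under IUB288, and Cyp2c29 at 335.6 and 650.9, then 55.7 and 186.4 (the authors' deposited tables). KO was thus listed above WT in each treatment. The locus of the organic anion transporter genes Slco1a1 and Slco1a6 was at 4.51 FPKM in WT and 52.3 in KO, 3.54 ± 0.46 (q = 0.0118, the authors' deposited table). It was the only 1 of 15 tested bile acid and organic anion transporters to pass. Abcg2, an efflux pump, had 1.08 ± 0.41 (q = 0.0535), and the sterol half-transporters Abcg5 and Abcg8 0.67 ± 0.45 and 0.71 ± 0.42 (q = 1.00 and 0.749, the authors' deposited table).

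Of 26 tested genes that male mouse liver is known to express more than female liver, 6 passed as higher in KO and 0 as lower, 24 had a positive sign, and the median was 0.63. At an unadjusted p under 0.05, 10 were higher and 1 was lower. That 1 was Bcl6, the lowest of the list, at -2.16 ± 0.76 (q = 0.0870, the authors' deposited table). Cyp4a12b and Cyp4a12a are male-specific fatty acid hydroxylases. Cyp4a12b was at 0.335 FPKM in WT and 4.62 in KO, 3.79 ± 0.72 (q = 0.0118, the authors' deposited table). Cyp4a12a was at 6.53 and 40.4 FPKM, 2.63 ± 0.45 (q = 0.0118, the authors' deposited table). Hsd3b5, a male-specific steroid dehydrogenase, was at 6.55 and 26.3 FPKM, 2.00 ± 0.50 (q = 0.0118, the authors' deposited table). Elovl3, an elongase of very long fatty acids, was at 12.7 and 42.0 FPKM, 1.73 ± 0.56 (q = 0.0208, the authors' deposited table). Susd4, a membrane protein, was at 9.96 and 22.5 FPKM, 1.17 ± 0.41 (q = 0.0118, the authors' deposited table). The sixth is the Slco1a1 locus, since Slco1a1 is itself male-biased. With normal p-values Elovl3 and Susd4 did not pass, and Moxd1, which the deposited q does not call, did.

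Under vehicle the KO value was listed higher for all 6: 10.3 FPKM in WT and 132.5 in KO for Hsd3b5, 39.5 and 103.2 for the Slco1a1 locus, 33.0 and 93.6 for Elovl3, 3.68 and 21.1 for Susd4, 83.2 and 144.1 for Cyp4a12a and 5.68 and 6.92 for Cyp4a12b (the authors' deposited tables). The major urinary protein genes Mup20 and Mup3 did not pass under IUB288. Mup20 was at 3412 and 5357 FPKM, 0.65 ± 0.68, and Mup3 had 0.21 ± 0.61 (q = 1.00 for each, the authors' deposited table). Other major urinary protein loci of the list, 3 in WT and 4 in KO, were listed at 0, so no fold is given for them. Of 14 tested female-biased genes 0 passed, with a median of -0.30 and 9 of negative sign; Cyp2a4 (1.44 ± 0.52, q = 0.0587) and Hamp2 (1.20 ± 0.46, q = 0.0765) lay on the other side, and A1bg (-1.80 ± 0.77, q = 0.282) had the lowest value (the authors' deposited table). Y-linked transcripts were present in both groups, with Ddx3y at 5.54 FPKM in WT and 6.51 in KO and Eif2s3y at 23.4 and 27.9, while Xist was at 0.0067 and 0.0124 and untested (the authors' deposited table). Growth hormone signalling sets sex-biased liver expression, and of 17 tested genes of that axis 0 passed. Bcl6, a repressor in it, was at 9.76 and 2.18 FPKM, -2.16 ± 0.76 (q = 0.0870), Onecut1 had 1.00 ± 0.43 (q = 0.0814), and Igf1 -0.07 ± 0.66 and Ghr 0.29 ± 0.53 (q = 1.00 for both, the authors' deposited table).

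Globin loci were higher in KO. Of 4 tested erythroid markers, with 1 locus counted for each symbol, 3 passed as higher, and a further alpha globin locus passed as well. With normal p-values 0 of these passed. The list summed to 268.7 FPKM in WT and 619.1 in KO (239.1 and 511.4 under vehicle, the authors' deposited tables). Beta-s was at 116.5 and 317.6 FPKM, 1.45 ± 0.44 (q = 0.0118, the authors' deposited table). A first alpha globin locus of Hba-a1 and Hba-a2 had 1.39 ± 0.44 and a second 1.55 ± 0.46 (q = 0.0118 for each), and Hbb-b1 with Hbb-b2 had 1.31 ± 0.46 (q = 0.0208, the authors' deposited table). Alas2, the erythroid enzyme of haem synthesis, had 0.44 ± 0.40 (q = 1.00, the authors' deposited table). Globin copies are near-identical, so reads may be divided between them. The part that blood left in the tissue has in these values was not tested.

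Mcm6, a subunit of the replicative helicase, was at 5.44 FPKM in WT and 13.1 in KO, 1.27 ± 0.42 (q = 0.0282, the authors' deposited table), and was the 1 of 22 tested cell-cycle genes to pass. With normal p-values it did not. The list had a median of 0.35, with 20 of 22 positive and 7 at an unadjusted p under 0.05, all higher. The other helicase subunits Mcm2 (1.15 ± 0.44, q = 0.0933), Mcm3 (1.01 ± 0.49, q = 0.3), Mcm4 (1.02 ± 0.51, q = 0.315) and Mcm5 (0.92 ± 0.46, q = 0.379) did not pass, and Mki67, a proliferation marker, was at 0.277 and 0.188 FPKM and untested (the authors' deposited table).

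Among called named loci of at least 1 FPKM and above 0 in both groups, the largest log2 increase was that of H2-Bl, a class I histocompatibility locus annotated as a polymorphic pseudogene, at 0.442 FPKM in WT and 6.88 in KO, 3.96 ± 0.77 (q = 0.0118, the authors' deposited table). With a pseudocount of 1 FPKM its log2 increase was 2.45, below Cyp3a11 (3.59), the Slco1a1 locus (3.27) and Cyp4a12a (2.46). Class I genes are alike in sequence, so its reads are uncertain. Rarres1, a retinoid-responsive gene, had 1.74 ± 0.57 and Inmt, an indole methyltransferase, 1.24 ± 0.40 (q = 0.0118 for each, the authors' deposited table). Psat1, an enzyme of serine synthesis, was at 0.389 and 1.78 FPKM, 2.19 ± 0.72 (q = 0.0208, the authors' deposited table). Pappa2, a protease of insulin-like growth factor binding proteins, had 2.33 ± 0.61 (q = 0.0118) and the exchange factor Arhgef10 2.04 ± 0.65 (q = 0.0282, the authors' deposited table). Sort1, the sorting receptor sortilin, was at 0.832 and 2.03 FPKM, 1.29 ± 0.49 (q = 0.0282, the authors' deposited table). Acpp (1.88), Zfp868 (1.68), Srgap3 (1.61), Lrtm1 (1.55), Snhg11 (1.54), Tsc22d1 (1.38) and Rcan2 (1.25) complete the named increases above 0 in both groups, on the log2 scale of the authors' deposited table. With normal p-values 0 of the increases from Rarres1 to Rcan2 passed.

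2 large decreases rest on loci that hold small RNA genes. Irak1, a kinase of interleukin-1 receptor signalling, was at 898.0 FPKM in WT and 14.0 in KO, -6.00 ± 0.29 (q = 0.0118, the authors' deposited table). Its locus also holds Mir718 and Mir5132 in GENCODE, and the values do not show which of the 3 was counted. The authors' deposited treatment tables listed 14.4 in WT with vehicle, 14.7 in KO with vehicle, 961.0 in WT with IUB288 and 14.8 in KO with IUB288, so WT with IUB288 alone was high. Snord89, a small nucleolar RNA, followed the same pattern, at 54.9 FPKM in WT and 0.785 in KO, -6.13 ± 0.93 (q = 0.0118), beside 0.569 and 0.717 under vehicle (the authors' deposited tables). Whether both WT mice were high is not shown by the pooled value.

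Smaller decreases included Wnt10a, a Wnt ligand, at 8.86 FPKM in WT and 1.16 in KO, -2.94 ± 0.55 (q = 0.0118, the authors' deposited table). Under vehicle it was listed at 0 in WT and 0.013 in KO (the authors' deposited tables). Akr1b7, an aldo-keto reductase, was at 6.94 and 1.23 FPKM, -2.49 ± 0.63, and Slpi, a secreted inhibitor of leukocyte proteases, at 12.7 and 3.27 FPKM, -1.96 ± 0.59 (q = 0.0118 for each, the authors' deposited table). Derl3, a component of endoplasmic reticulum degradation, was at 8.45 and 2.44 FPKM, -1.79 ± 0.57 (q = 0.0118, the authors' deposited table). It was 1 of 26 tested chaperone and unfolded protein response genes and the one that passed. Hapln4 (-1.26), Ifi27l1 (-1.26), Prhoxnb (-1.25), Mmd2 (-1.23) and 1600002H07Rik (-1.09) complete the named decreases, on the log2 scale of the authors' deposited table. Of the decreases from Wnt10a to 1600002H07Rik, Wnt10a and Akr1b7 also passed with normal p-values and the others did not.

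14 of the 75 called loci were listed at 0 in a group, 12 in WT and 2 in KO, so no fold is given for them. Named among them were Ambn, Gm5779 and B020031M17Rik, at 1.20, 0.47 and 0.649 FPKM in KO and 0 in WT (the authors' deposited table). A group of 3 loci without a symbol lies on chromosome 10 between 42052740 and 42054497, and the authors' deposited table put the highest of them at 721.4 FPKM in KO and 0 in WT. That locus spans only 42054387 to 42054497, and FPKM is scaled for length, so few fragments can give a high value. It and the locus from 42054175 to 42054332 both overlap the processed pseudogene Gm9855 in GENCODE, so the 3 may not be separate transcripts. In all 13 called loci had no symbol and 9 were under 1 FPKM in both groups. Within 100 kb of another called locus lay 19 called loci, in 8 clusters, and each cluster changed in 1 direction. They include the Saa, Mt, C1q, Cyp4a12 and both globin clusters. At the threshold, Snhg11 (q = 0.0371), Mcm6 and Sort1 (q = 0.0282 for both) lay just inside among the increases, and Tff3, Abcg2 (q = 0.0535 for both) and Cyp2c54 (q = 0.0587) just outside (the authors' deposited table). Among the decreases Ctss and 1600002H07Rik (q = 0.0282 for both) and Hapln4 (q = 0.0208) lay just inside, and Apol9a (q = 0.0535), Cd163 (q = 0.0587) and Hal (q = 0.0765) just outside (the authors' deposited table).

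Lists of gluconeogenesis, amino acid catabolism and cyclic AMP target genes, which glucagon is known to act on, held 0 called genes between the genotypes. Over all tested loci 0.539% were called, so 0 called in lists of this size is no result about them. Of 20 gluconeogenesis genes none passed in the authors' deposited table, where 0 were also past an unadjusted p of 0.05, and the median was -0.16. Pck1, the cytosolic carboxykinase gene, was at 1785 FPKM in WT and 1359 in KO, -0.39 ± 0.64 (q = 1.00, the authors' deposited table). Under vehicle it was listed at 880.4 in WT and 256.1 in KO (the authors' deposited tables). The glucose-6-phosphatase gene G6pc was at 138.4 and 146.6 FPKM, 0.08 ± 0.43 (q = 1.00, the authors' deposited table). Gcgr was at 116.5 and 107.7 FPKM, -0.11 ± 0.41, and the hepatokine gene Fgf21 at 4.40 and 5.41 FPKM, 0.30 ± 0.58 (q = 1.00 for each, the authors' deposited table). Of 57 urea cycle and amino acid catabolism genes 0 passed (3 lower at an unadjusted p under 0.05, median -0.19), and of 24 cyclic AMP targets 0 passed (2 lower, median -0.02).

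Cholesterol synthesis and the respiratory chain held 0 called genes, beside 0.539% called over all tested loci. Of 26 tested sterol genes 22 had a negative sign, 7 had an unadjusted p under 0.05, all lower, and the median was -0.46. Mvk, mevalonate kinase, was at 20.3 FPKM in WT and 9.91 in KO, -1.04 ± 0.46 (q = 0.121), and Idi1 had -0.83 ± 0.45 (q = 0.49, both in the authors' deposited table). Of 48 respiratory chain genes 45 had a negative sign, 0 had an unadjusted p under 0.05, and the median was -0.26, beside -0.19 for all loci above 100 FPKM. Members of such lists are expressed together and are not independent replicates.

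**Figure D4:**
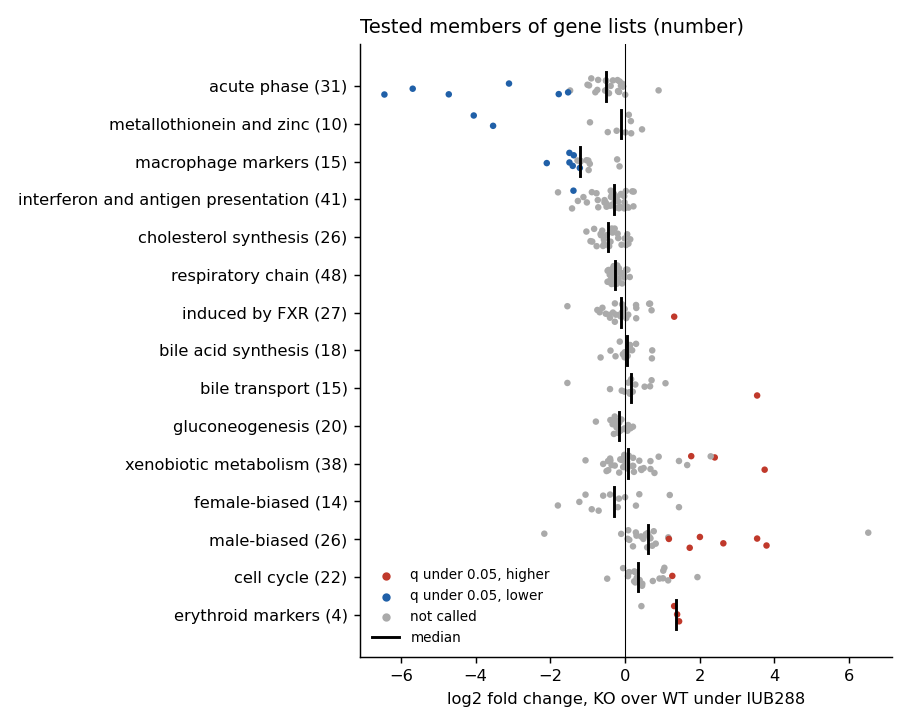
Log2 fold change of KO over WT under IUB288 for each tested member of 15 gene lists, with the number tested in parentheses. Black lines are medians, red and blue points passed q under 0.05, and grey points did not. Macrophage markers centre on -1.19, male-biased genes on 0.63 and erythroid markers on 1.35.

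The vehicle groups are other mice, and their levels show how far the genotype difference was listed without IUB288. They come from the 2 treatment tables, each scaled on its own, with no test. Of the 32 loci called higher in KO under IUB288 with at least 1 FPKM and above 0 in both groups, 31 were listed higher in KO under vehicle (96.9%), 16 of them at least 2-fold. Of the 28 called lower, 23 were listed lower under vehicle (82.1%), 6 at least 2-fold. Over all 10892 tested loci of at least 1 FPKM, 51.3% were listed higher in KO and 48.6% lower, and 1.46% and 1.95% at least 2-fold so. The median log2 ratio under vehicle was 1.00 for the loci called higher and -0.53 for those called lower. Among the decreases Derl3, Irak1, Snord89, Wnt10a and the Orm locus were listed higher in KO under vehicle.

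Whether the genotype difference itself changed with IUB288 was tested from the 2 treatment tables, as the IUB288 effect in KO minus that in WT, which equals the KO effect under IUB288 minus that under vehicle. By a normal test on the implied errors with Benjamini-Hochberg adjustment, 14 of 13521 loci passed (0.104%). Among the named loci called between the genotypes these were Irak1, Saa2, Saa1, Lcn2 and Derl3, which were lower, and Cyp3a11 and Cyp4a12b, which were higher. That is 5 of 27 testable decreases and 2 of 31 testable increases. These loci were chosen by their gap under IUB288, and the difference uses the same IUB288 mice. Passing in the direction of the call is therefore favoured, and these shares cannot be set against the 0.104% over all loci. The difference also passed for Cyp2a4, 3.68 ± 0.80 on the log2 scale (q = 0.00792), and for the immediate-early gene Egr1, 3.21 ± 0.68 (q = 0.00527). Cyp2a4 was listed at 5.26 FPKM in WT and 1.09 in KO under vehicle, and at 17.8 and 47.3 under IUB288. Egr1 was listed at 8.93 and 2.00 under vehicle, and at 1.89 and 3.92 under IUB288 (the authors' deposited tables). Both were thus listed lower in KO under vehicle and higher under IUB288. Neither was called between the genotypes under IUB288 (q = 0.0587 and 0.265, the authors' deposited table). The metallothionein, C1q, globin, Hsd3b5, Gas2l3 and Slc17a8 differences did not pass this test, which does not show them to be equal in both treatments. The genotype table and both treatment tables share the IUB288 mice, so their values are given side by side only.

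**Figure D5:**
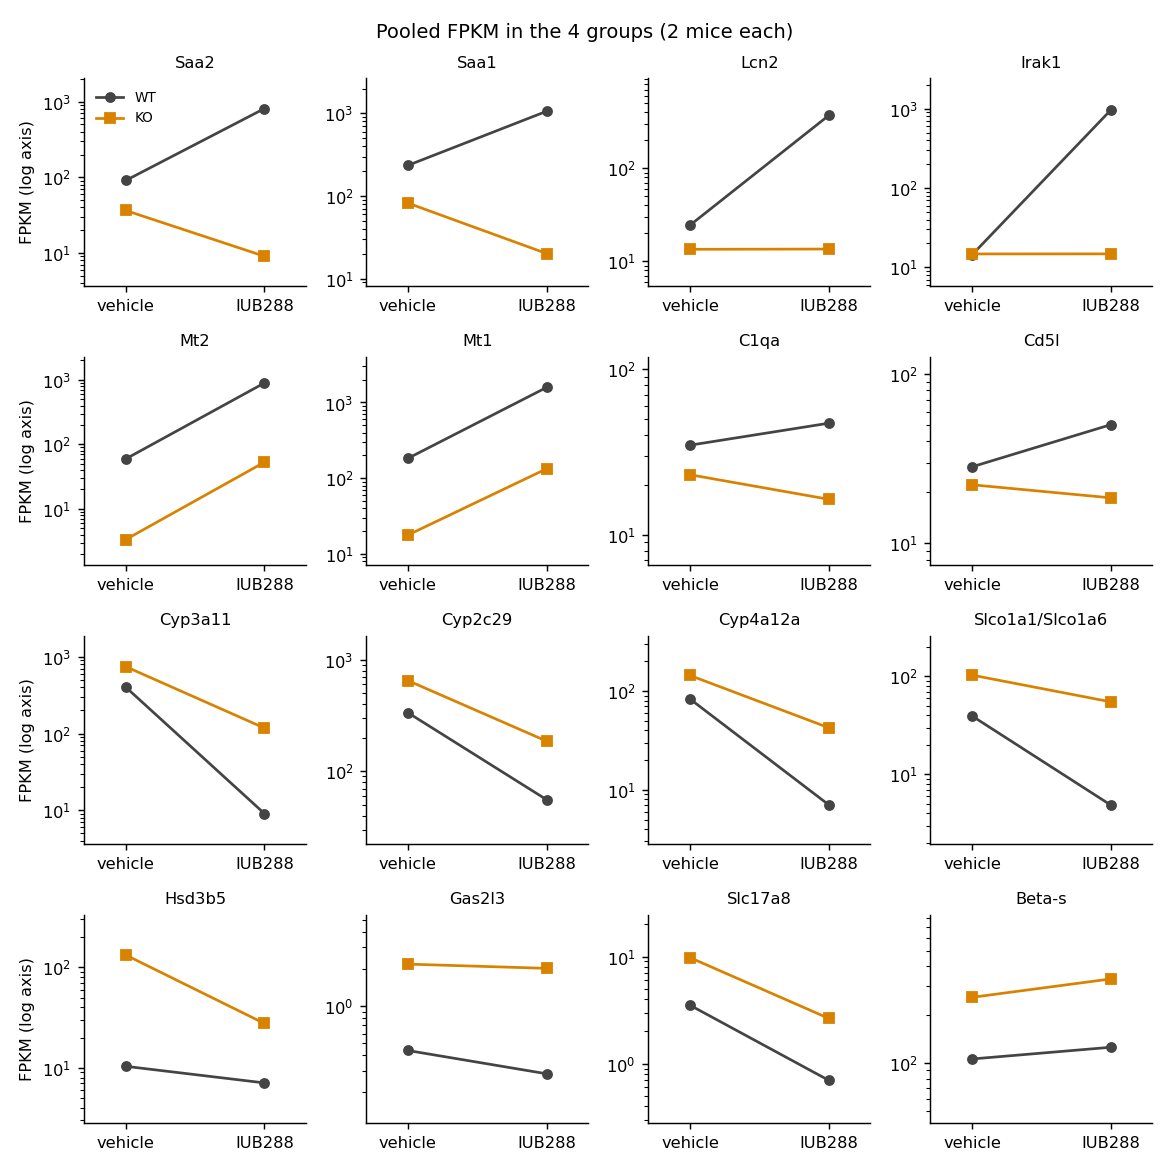
Pooled FPKM (logarithmic axis) of 16 genes under vehicle and IUB288 in WT (circles) and KO (squares), 2 mice per group, from the 2 treatment tables. In WT the Saa genes, Lcn2 and Irak1 lie higher with IUB288 and in KO they do not, the metallothionein lines run in parallel, and Gas2l3 and Slc17a8 are higher in KO in both treatments.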

How the data were processed

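Mouse liver RNA was extracted with TRIzol and sequenced from TruSeq libraries, per the labels' protocols. The submitters' processing notes name Cufflinks 2.2.1, Cuffdiff, TopHat2 2.0.12, Bowtie2 2.2.3, Trim Galore 0.4.0 and bcl2fastq 1.8.4, with mm10 and hg19 as builds, and do not say whether strand was used. The authors deposited 3 full tables with pooled FPKM values per group and, for each locus, a log2 fold change, a test statistic (score), a p-value and a q-value. Each table is scaled on its own: IUB288 values were 1.05 (KO) and 1.08 (WT) times as high in the treatment tables as in the genotype table. Depth per library is not given, so no counting interval was computed, and a listed FPKM of 0 may be an estimate that failed.

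A locus was called at status OK and q under 0.05. The deposited p-values have a floor of 5e-05. The difference of effects used errors implied by the statistics and a normal test. In simulated data 176 of 200 loci with a log2 difference of 4 were recovered among 13206, with 11 false calls. The simulated noise was normal with these same implied errors, and loci with the largest errors were left out. The simulation therefore checks the calculation only. It does not show that errors implied from 2 mice per group are right, or that smaller differences would be found. Coordinates are mm10, counted from 1, and overlaps come from GENCODE M21. Members and the 49 gene lists were chosen with earlier results of these data known. Named were 9 set genes, all called loci with a symbol, up to 4 called members per list or the 2 with the largest statistic, and the 3 loci either side of the threshold; other names were chosen after their values were seen. Alternatives were a minimum of 1 FPKM, other q thresholds, p-values from a normal distribution, centring, pseudocounts, other errors and other windows. Tools here were scipy 1.17.1, pandas 2.3.3, numpy 2.4.6 and matplotlib 3.10.9 in Python 3.11.15. Leaving out single mice was not possible without values per mouse.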

Additional observations from a re-analysis of the deposited data

Results flagged for a closer look

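For 7 genes called under IUB288 and 2 not called the KO effect differed between IUB288 and vehicle by the test of the difference (normal test on implied errors, with q-values by Benjamini-Hochberg over 13521 loci, from the authors' deposited treatment tables, 2 mice per group). On the log2 scale, the KO effect under IUB288 minus that under vehicle was -6.06 ± 0.47 for Irak1 (q = 2.79e-34), -5.17 ± 0.71 for Saa2 (q = 1.58e-09), -4.21 ± 0.67 for Saa1 (q = 1.08e-06), -3.91 ± 0.70 for Lcn2 (q = 5.93e-05) and -3.52 ± 0.85 for Derl3 (q = 0.0325). It was 2.82 ± 0.69 for Cyp3a11 (q = 0.0435) and 3.48 ± 0.83 for Cyp4a12b (q = 0.0325). Of the genes not called, it was 3.68 ± 0.80 for Cyp2a4 (q = 0.00792) and 3.21 ± 0.68 for Egr1 (q = 0.00527). The Irak1 locus also holds Mir718 and Mir5132, and the values do not show which was counted. Its implied error between the genotypes under IUB288, 0.295, was below 0.397, the 5th percentile of loci above 10 FPKM. These q-values rest on the implied errors, and no value per mouse is given. Pooled values do not show whether both mice of a group moved. The 7 called genes were first chosen by their gap under IUB288 in the same mice, which favours a difference in that direction.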

How the results depend on the processing

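Between KO and WT under IUB288, 75 loci were called, 45 higher and 30 lower. At q under 0.01 there were 0 in total, 0 higher and 0 lower, since the smallest q of the table is 0.0118; 573 loci had an unadjusted p under 0.05. With p-values computed from a normal distribution of the statistic, 28 loci were called, 16 higher and 12 lower. Of these 20 were also called by the deposited q, and 8 were not. Apart from Moxd1 (statistic 4.40), the 8 had statistics from 15.8 (Snora15) to -4473 (a locus without a symbol) in size. Their implied errors were very small, and several are small RNA loci such as Snord104, Mir1954 and mt-Tt, so these calls are uncertain. Of the deposited calls 41 with a finite statistic were lost, among them the globin loci, Mcm6, Irf7, Derl3, Slc17a8, the Orm locus, Lrg1 and all macrophage markers but Marco, and 14 have no finite statistic. Total counts under the other settings were 99 (q under 0.1), 66 (at least 1 FPKM), 69 (adjusted again over those), 75 (2-fold as well) and 75 (centred). Leaving out loci listed at 0 in a group, a setting chosen after the data were seen, kept 61, 33 higher and 28 lower. The difference of KO effects was called at 14 loci, and at 11 with either other error. Within 20 Mb of Nr1h4 5 loci were called, against 3 within 10 or 5 Mb. For single genes 510 values stayed within the implied error and 2 moved: with a pseudocount of 1, Sox9 had 0.52 and Cyp2c54 1.29 on the log2 scale. List medians changed sign in 2 of 45 lists with the FPKM minimum, in 2 of 46 when centred and in 0 of 46 with the pseudocount. No paired analysis was possible because the tables hold 1 pooled value per group, and leaving out single mice was not run for the same reason. With 2 mice per group and unknown depth, the smallest change called was 1.09 on the log2 scale.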

Other observations

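Lists not described above held few called loci, counted from the authors' deposited table. Of 33 tested genes of fatty acid oxidation and PPAR-alpha targets 2 were higher in KO (Cyp4a12a and Cyp4a12b) and 0 lower, with a median log2 fold change of 0.01. Of 31 lipogenesis genes 1 was higher (Elovl3; median 0.01), of 18 retinoid genes 1 (Rarres1; 0.09) and of 26 pericentral genes, those of hepatocytes around the central vein, 2 (Cyp2c29 and Ces1d; 0.07). With p-values from a normal distribution of the statistic Elovl3, Rarres1, Ces1d and the C1q chains did not pass. Of 22 periportal genes 0 passed, with a median of -0.21. Of 38 complement and coagulation genes 3 were lower, all of them C1q chains that macrophages also make (median -0.16). Of 35 conjugation genes 0 passed (0.12), nor did any of 23 clock genes (0.16), 18 targets of the oxidative stress factor NRF2 (0.07), 25 apolipoprotein and lipoprotein genes (-0.17) or 24 autophagy and lysosome genes (-0.08). Tff3, a trefoil peptide just outside the threshold, was at 2.06 FPKM in WT and 11.6 in KO under IUB288, and at 3.0 and 1.65 under vehicle (the authors' deposited tables).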
